A study of Homo sapiens with 4 samples.

Results

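SLC3A2, the heavy chain of a family of amino acid transporters at the plasma membrane, was followed together with 9 other amino acid transporter genes in MDA-MB-231 cells. The 10 genes are SLC3A2, SLC7A11, SLC7A5, SLC7A6, SLC7A1, SLC1A4, SLC1A5, SLC38A1, SLC38A2 and SLC6A9, out of 35993 genes in the expression table, of which 16599 had 10 or more counts on average. SLC3A2 lies at chr11:62623581-62656332 on the plus strand and SLC7A11 at chr4:139085251-139163503 on the minus strand (GRCh37, the build of the table). The members were found by gene symbol, and all 10 passed that count minimum. The list was selected with the levels of these same 4 libraries in view, so the members' levels and fold changes are given as a description, with no test.

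MDA-MB-231 is a human triple-negative breast cancer line with mesenchymal features, and kahweol is a diterpene of coffee. The cells were transfected with a control siRNA (siControl) or with an siRNA against CTGF (siCTGF), and were left untreated or treated with 50 µM kahweol for 48 h in serum-free medium. Each of the 4 conditions (siControl, siControl with kahweol, siCTGF, siCTGF with kahweol) is 1 library of rRNA-depleted RNA, with no replicate. Knockdown rested on 1 siRNA sequence, with 1 control siRNA, and the methods name no vehicle for the untreated cells, so an effect of the solvent and that of kahweol cannot be told apart.

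The library totals ranged from 44781516 to 59129784 counts. The mRNA of CTGF (gene symbol CCN2), the target of the siRNA, stood at 159 CPM (TMM-scaled counts relative to library size) in untreated siControl cells against 63.6 CPM in siCTGF cells, and with kahweol at 186 against 31.8 CPM. VIM and ZEB1, mesenchymal markers, were at 2549 to 3255 and 95.3 to 156 CPM, while CDH2, another, was at 0.0695 to 0.368 CPM. The epithelial markers KRT8, EPCAM and CDH1 were at 300 to 363, 21.7 to 29.5 and 6.62 to 10.4 CPM. Of the receptor genes, ESR1 (estrogen receptor) was at 0.0960 CPM or less and PGR at 0.166 to 0.592 CPM, but ERBB2 was at 52.6 to 74.8 CPM. Of 10 epithelial and mesenchymal markers, 2 rose and 3 fell with kahweol in the edgeR test described further on, beside 22.9% and 23.6% of all genes. KRT19 fell from 313 and 245 CPM to 118 and 100.3 CPM. Of 12 markers of fibroblasts, leukocytes and endothelial cells, 5 passed the count minimum, with CD68 highest at 40.6 to 60.6 CPM, and their summed level was 44.0 to 60.5 TPM. Mitochondrial rRNA took 3.11 to 6.01% of the counts and was highest in siCTGF cells with kahweol. The part of these differences in the results was not tested.

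The SLC3A2 protein (CD98 heavy chain) is a glycoprotein that carries no substrate itself. It binds a light chain of the SLC7 family through a disulfide bond and brings it to the cell surface, and the light chain sets the substrate: SLC7A11 (xCT) takes up cystine in exchange for glutamate, SLC7A5 (LAT1) takes up leucine and other large neutral amino acids, and SLC7A6 exchanges arginine and other cationic amino acids for neutral ones. Several of these genes are known targets of ATF4, the transcription factor of the amino acid response, and SLC7A11 is also a known target of NFE2L2 (NRF2), the transcription factor of the oxidative response.

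The promoters of SLC3A2 and of its light chain partners SLC7A5 and SLC7A6 are shown. Each of these light chains pairs separately with SLC3A2, while the mRNAs of these genes differed in their response across the 4 libraries. All members but SLC7A11 matched the RefSeq promoter table (9 of 10, build GRCh38.p14). Each sequence runs 5′ to 3′ on the strand of the gene, from 250 bases before to 50 bases after a start site. Capitals mark the letters of 3 motifs searched on both strands: TGATGNAA (an ATF4 element), TGACNNNGC (an antioxidant response element) and CACGTG (an E-box). The windows lie at chr11:62881449-62881748 on the plus strand (SLC3A2), chr16:87869458-87869757 on the minus strand (SLC7A5) and chr16:68264276-68264575 on the plus strand (SLC7A6).
SLC3A2: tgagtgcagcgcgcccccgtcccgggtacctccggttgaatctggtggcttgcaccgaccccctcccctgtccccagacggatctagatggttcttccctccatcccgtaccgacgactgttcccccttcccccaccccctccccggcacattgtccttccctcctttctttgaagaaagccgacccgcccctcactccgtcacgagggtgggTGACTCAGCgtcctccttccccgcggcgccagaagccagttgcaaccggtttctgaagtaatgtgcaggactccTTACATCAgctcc
SLC7A5: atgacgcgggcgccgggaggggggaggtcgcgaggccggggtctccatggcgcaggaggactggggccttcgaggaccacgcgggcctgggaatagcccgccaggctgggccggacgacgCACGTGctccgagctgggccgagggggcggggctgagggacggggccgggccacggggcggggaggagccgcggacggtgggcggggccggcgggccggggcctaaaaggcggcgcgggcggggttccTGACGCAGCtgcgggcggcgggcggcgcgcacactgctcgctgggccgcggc
SLC7A6: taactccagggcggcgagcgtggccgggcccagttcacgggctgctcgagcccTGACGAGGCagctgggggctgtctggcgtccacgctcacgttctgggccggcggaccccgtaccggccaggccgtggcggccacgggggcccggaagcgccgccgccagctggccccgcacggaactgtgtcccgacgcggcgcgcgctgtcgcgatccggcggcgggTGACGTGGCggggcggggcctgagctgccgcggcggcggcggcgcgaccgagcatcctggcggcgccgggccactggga

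The SLC3A2 window held TGACTCAGC with its first base at -37 from the start site and TTACATCA, the ATF4 letters on the opposite strand, at position 38. The 2 other windows of SLC3A2 held none of the 3 motifs. The SLC7A5 window held TGACGCAGC at -2 and CACGTG at -130, and the SLC7A6 window held TGACGAGGC at -197 and TGACGTGGC at -29. Across 35116 RefSeq promoters of the same length, 3.62% held the ATF4 letters, 13.3% the antioxidant letters and 7.26% the E-box letters. Of the 9 members in the table, 5, 5 and 2 had a window with the motif in that order, over 15 windows, so that a member with several windows had more chances. SLC7A1, SLC1A4, SLC1A5 and SLC38A1 held the other ATF4 letters, at 8, -7, -97 and -4. The windows of SLC38A2 and SLC6A9 held none of the motifs.

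In siControl cells without kahweol, the levels per transcript length (TPM as deposited) ran from 163 to 1.14 TPM. SLC38A2, a sodium-coupled transporter of small neutral amino acids, was at 163 TPM, SLC3A2 at 137 TPM, SLC38A1, which transports glutamine, at 115 TPM, and SLC1A5, which exchanges glutamine and other neutral amino acids, at 102 TPM. SLC7A5 was at 71.6 TPM, SLC7A11 at 30.7 TPM, SLC7A1, which transports arginine and lysine, at 24.9 TPM and SLC7A6 at 11.9 TPM. SLC1A4, which transports serine, alanine and other small neutral amino acids, was at 4.27 TPM, and SLC6A9, the glycine transporter, was at 1.14 TPM. With kahweol the order changed at the top, where SLC3A2 stood at 918 TPM above SLC38A2 at 190 TPM, and SLC7A11 at 90.0 TPM passed SLC7A5 at 67.2 TPM. With no replicate, the spread of these levels between cultures is unmeasured.

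**Figure D1:**
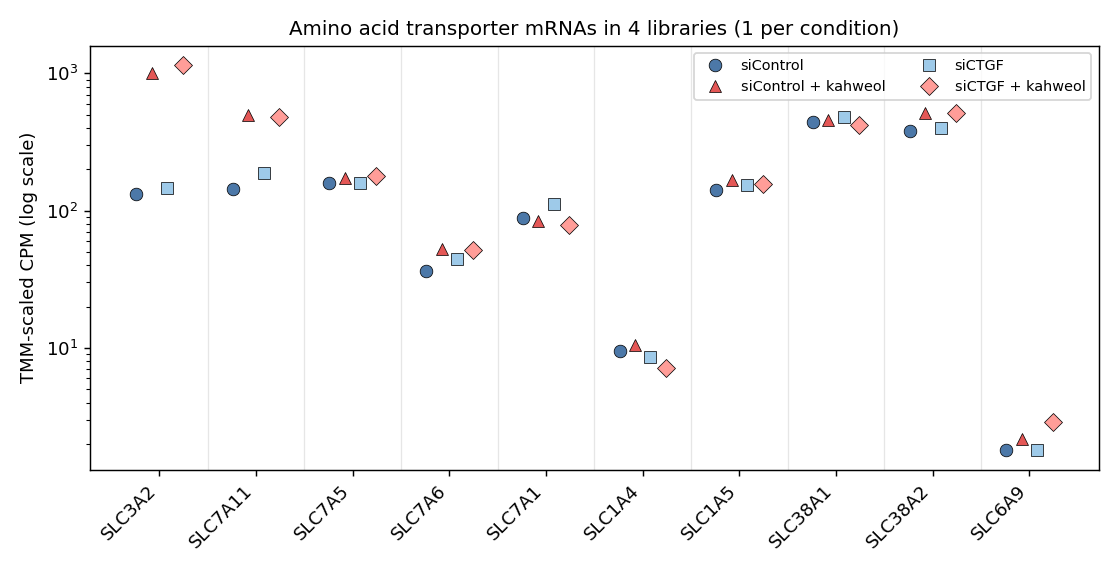
Level of each transporter mRNA in the 4 libraries, in TMM-scaled CPM on a log axis, with 1 point per library. SLC3A2 stood at 132 and 145 CPM without kahweol and at 1003 and 1145 CPM with it. SLC7A11 moved the same way, and SLC7A5 stayed between 158 and 180 CPM.

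The first question was what kahweol changed in each siRNA background. SLC3A2 was at 132 CPM in siControl cells and at 1003 CPM in siControl cells with kahweol, and at 145 CPM in siCTGF cells and 1145 CPM in siCTGF cells with kahweol. Both treated libraries lay far above both untreated ones. The log2 fold change of CPM was 2.92 (95% counting interval 2.88 to 2.97, a 7.59-fold difference) in siControl cells and 2.98 (2.93 to 3.03, 7.88-fold) in siCTGF cells. It ranked 69 of 16599 genes from the highest in the first comparison and 105 in the second. Counting intervals take 2 reads as 1 fragment and cover counting error, not differences between cultures. Total RNA per cell and the level of a single mRNA cannot be told apart in such libraries.

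SLC7A11 was at 144 CPM in siControl cells, 493 CPM in siControl cells with kahweol, 188 CPM in siCTGF cells and 479 CPM in siCTGF cells with kahweol. Both treated libraries were again above both untreated ones. Its log2 fold change of CPM was 1.78 (1.73 to 1.83) in siControl cells and 1.35 (1.2999 to 1.3967) in siCTGF cells. SLC7A11-AS1, an antisense gene over 14081 bases of SLC7A11, had at most 5 counts in any library, and the strand setting of the counting is not given in the sources used here.

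SLC7A5, the other main light chain, was at 158, 174, 160 and 180 CPM in siControl, siControl with kahweol, siCTGF and siCTGF with kahweol. Its log2 fold change with kahweol was 0.14 (0.08 to 0.20) and 0.17 (0.11 to 0.23), and it turned negative on the TPM scale, to -0.09 in both. SLC7A6 was at 36.5, 52.7, 44.5 and 51.4 CPM in the same order. Its log2 fold change was 0.53 (0.41 to 0.65) in siControl cells and 0.21 (0.09 to 0.33) in siCTGF cells, where it turned to -0.05 on the TPM scale. SLC7A6 shares 3786 bases with SLC7A6OS on the other strand, which had 1940 to 2610 counts, close to the 2275 to 2410 counts of SLC7A6, so reads of the 2 genes may be mixed.

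Of the 10 members, 4 were over a fold of 1.3 with kahweol in siControl cells (SLC3A2, SLC7A11, SLC7A6 and SLC38A2) and 0 were under 0.7. Over all genes, 28.1% were over 1.3 and 26.3% under 0.7. In siCTGF cells 3 members were over 1.3 (SLC3A2, SLC7A11 and SLC6A9) and 0 under 0.7, beside 28.4% and 24.2% of all genes. The SLC6A9 value there, a log2 fold change of 0.67, came to 0.28 on the log2(TPM + 1) scale and 0.23 on the log2(FPKM + 1) scale, both under the threshold. On the log2(TPM + 0.1) scale it was 0.45, still over the threshold. Since the members were chosen with these values known, nothing is read from the counts. The median of the 10 log2 fold changes was 0.26 in siControl cells and 0.19 in siCTGF cells, beside -0.02 and -0.003 over all genes.

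**Figure D2:**
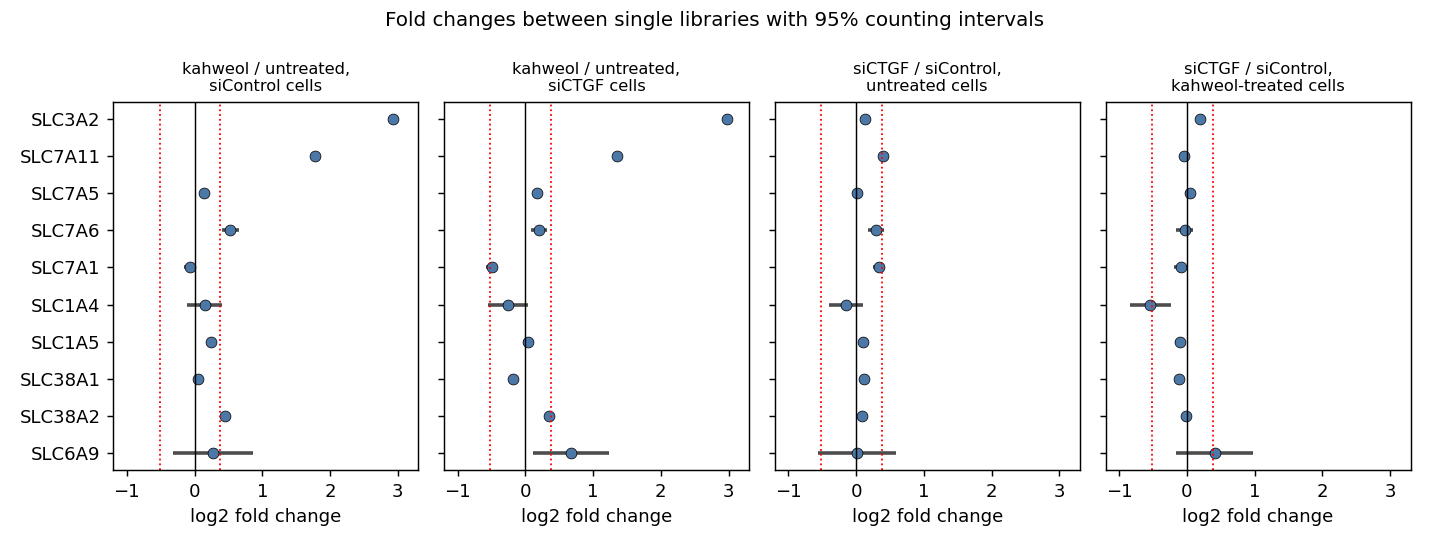
Log2 fold change of CPM for each transporter in the 4 comparisons of single libraries, with 95% counting intervals as bars. Dotted red lines mark folds of 1.3 and 0.7. SLC3A2 (2.92 and 2.98) and SLC7A11 (1.78 and 1.35) stand apart in both kahweol comparisons, and no member is as far from 0 in the siCTGF comparisons.

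SLC38A2 was at 379 CPM in siControl cells, 517 CPM with kahweol, 401 CPM in siCTGF cells and 511 CPM in siCTGF cells with kahweol. The log2 fold change was 0.45 (a fold of 1.37, just over the 1.3 threshold) and 0.35 (a fold of 1.27, just under it). SLC38A1, its close relative, was at 445, 459, 481 and 422 CPM in the same order, with log2 fold changes of 0.04 and -0.19. The SLC38A1 change in siControl cells turned negative under total-count, TPM and FPKM scaling.

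SLC1A5 was at 142, 168, 153 and 157 CPM in siControl, siControl with kahweol, siCTGF and siCTGF with kahweol, and SLC1A4 was at 9.46, 10.5, 8.56 and 7.19 CPM. The kahweol log2 fold changes of SLC1A5 were 0.24 and 0.03, and those of SLC1A4 were 0.15 (-0.11 to 0.40) and -0.25 (-0.55 to 0.05). The value of SLC1A5 in siCTGF cells turned negative under total-count, TPM and FPKM scaling, and that of SLC1A4 in siControl cells under TPM scaling. Both genes lay within a fold of 0.7 to 1.3 in both kahweol comparisons.

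SLC7A1 was at 88.7, 84.3, 112 and 79.1 CPM in that order. Its kahweol log2 fold change was -0.07 (-0.16 to 0.01) in siControl cells and -0.50 (-0.58 to -0.41) in siCTGF cells, where the fold of 0.709 lay just inside the 0.7 threshold. SLC6A9 had 112, 94, 98 and 129 counts, the fewest of the members. Its log2 fold change was 0.27 (-0.31 to 0.87) in siControl cells and 0.67 (0.11 to 1.24) in siCTGF cells, the widest intervals among the members. SLC6A9 overlaps CCDC24 by 46 bases on the other strand.

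The second question was how far the heavy chain and its light chains moved together. The 6 light chain genes SLC7A5, SLC7A6, SLC7A7, SLC7A8, SLC7A10 and SLC7A11 summed to 116 TPM in siControl cells, 172 TPM in siControl cells with kahweol, 123 TPM in siCTGF cells and 162 TPM in siCTGF cells with kahweol. SLC3A2 was at 137, 918, 142 and 989 TPM. The ratio of SLC3A2 to the summed light chains was 1.18 and 1.16 in the untreated libraries and 5.32 and 6.12 in the treated ones. The light chain total differed far less than SLC3A2. SLC7A11 took 26.5 and 31.5% of the light chain TPM without kahweol and 52.2 and 50.9% with it. SLC7A5 took 61.8 and 56.5% without kahweol and 39.0 and 40.4% with it. These ratios are of mRNA, and the proteins were not measured here.

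**Figure D3:**
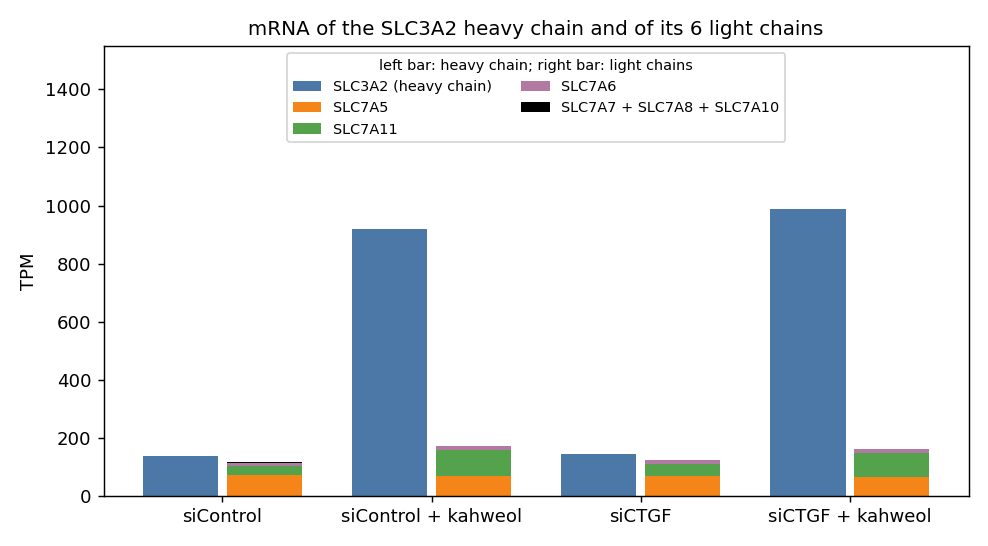
TPM of SLC3A2 (left bar of each pair) and of its 6 light chains stacked (right bar) in the 4 libraries, on an axis from 0. The SLC3A2 bar is 1.16 to 1.18 times the light chain bar without kahweol and 5.32 to 6.12 times with it.

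SLC3A2 took 20.7 and 20.6% of the summed TPM of the 10 members without kahweol and 60.8 and 64.8% with it. The 8 members other than SLC3A2 and SLC7A11 summed to 494 and 502 TPM in siControl cells without and with kahweol, and to 511 and 456 TPM in siCTGF cells. Their total thus moved little beside the gap in SLC3A2.

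The third comparison was siCTGF against siControl. SLC3A2 went from 132 CPM (siControl) to 145 CPM (siCTGF), a log2 fold change of 0.13 (0.07 to 0.20), and with kahweol at 1003 and 1145 CPM, a log2 fold change of 0.19 (0.16 to 0.22). Both were small beside its kahweol changes. SLC7A11 was higher in untreated siCTGF cells, at 188 against 144 CPM (log2 fold change 0.39, a fold of 1.31), and close in kahweol-treated cells, at 479 against 493 CPM (-0.04). Of the members, 1 was over 1.3 in untreated cells (SLC7A11) and 0 under 0.7, beside 9.63% and 8.99% of all genes. In kahweol-treated cells 1 was over (SLC6A9, 0.41, with an interval of -0.16 to 0.98) and 1 under (SLC1A4, -0.54, with an interval of -0.84 to -0.24), beside 14.7% and 7.83% of all genes. The medians of the members were 0.11 and -0.04, beside -0.01 and 0.00 over all genes.

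The kahweol changes in the 2 siRNA backgrounds use different libraries, but with 1 library per condition their difference has no test. The log2 fold change of SLC3A2 differed by 0.06 (siCTGF minus siControl), that of SLC7A11 by -0.43 and that of SLC7A5 by 0.03. Across the 16599 genes the median absolute difference was 0.222, and the central 95% ran from -1.35 to 1.87. The differences of all 10 members, from -0.43 to 0.40, lay inside that range. It takes in genes of low count, so lying inside it says little about members with high counts. In size, the differences of SLC7A11, SLC7A6, SLC7A1, SLC1A4, SLC38A1 and SLC6A9 were above the median of 0.222, and the rest were below it.

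Over the 4 libraries, the genes whose log2 CPM profile was nearest to that of SLC3A2 were FOS, NEB, RASD1, TEX14 and HSPA6, with root mean square differences of 0.102, 0.154, 0.183, 0.242 and 0.243 among 11737 protein-coding genes averaging 100 counts or more. All 5 were at lower levels: FOS, the highest of them with kahweol, was at 4.99 and 5.56 CPM without kahweol and 40.0 and 52.0 CPM with it. A likeness over 4 libraries is a description only.

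Other amino acid transporters were described from 3 lists of 55 genes that are not members, of which 35 passed the count minimum, using edgeR's quasi-likelihood test of the kahweol effect over all 4 libraries with siRNA as covariate and Benjamini-Hochberg adjustment over all genes. At an adjusted p under 0.05, 5 of the 35 rose (14.3%) and 12 fell (34.3%), beside 22.9% higher and 23.6% lower over all genes (3805 and 3922 genes). Under total-count scaling these were 4 and 15 of the transporters, and 2880 and 5162 of all genes. Folds were over 1.3 in both kahweol comparisons for 6 and under 0.7 in both for 12 of the 35, beside 20.7% and 18.2% of all genes. These lists, like the members, were chosen with earlier results of these data known, so their counts and p-values are a description.

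At the plasma membrane, SLC1A1, a carrier of glutamate, aspartate and cysteine, fell from 16.6 and 13.4 CPM without kahweol to 5.00 and 4.03 CPM with it (edgeR log2 fold change -1.73 ± 0.16 SE, adjusted p = 0.000153). SLC6A17 also fell (-1.37 ± 0.33, adjusted p = 0.0118). SLC38A6 rose from 7.59 and 7.73 CPM to 11.6 and 14.8 CPM (0.77 ± 0.16, adjusted p = 0.00556), and SLC43A2, a transporter of large neutral amino acids, rose by 0.49 ± 0.12 (adjusted p = 0.0121). SLC16A10, at 0.50 ± 0.25, did not pass (adjusted p = 0.138). In lysosomes and endomembranes, SLC36A1 rose (0.65 ± 0.11, adjusted p = 0.00271) and SLC38A10 fell (-1.02 ± 0.09, adjusted p = 0.000169).

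Of 10 mitochondrial carriers kept, 7 fell and 2 rose, beside 23.6% lower and 22.9% higher over all genes. Their medians were -0.62 and -0.65 in siControl and siCTGF cells. SFXN3, a sideroflexin, fell from 68.9 and 60.7 CPM to 25.5 and 21.0 CPM (-1.48 ± 0.09, adjusted p = 5.31e-05), and SFXN2 fell by 1.65 ± 0.17 (adjusted p = 0.000254). SLC25A12, an aspartate and glutamate carrier, fell by 1.09 ± 0.10 (adjusted p = 0.000174), and SLC25A15, an ornithine carrier, by 0.70 ± 0.09 (adjusted p = 0.000710). SLC25A38, which carries glycine into mitochondria, rose from 35.7 and 38.9 CPM to 94.7 and 97.1 CPM (1.36 ± 0.10, adjusted p = 7.26e-05). For the siCTGF effect, edgeR called 0 of the 35 in either direction, as did DESeq2 and limma-voom, beside 0.0663% higher and 0.0602% lower over all genes in edgeR. Without adjustment, edgeR's p was under 0.05 for 5 higher and 4 lower of the 35, beside 851 and 794 of all 16599 genes.

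**Figure D4:**
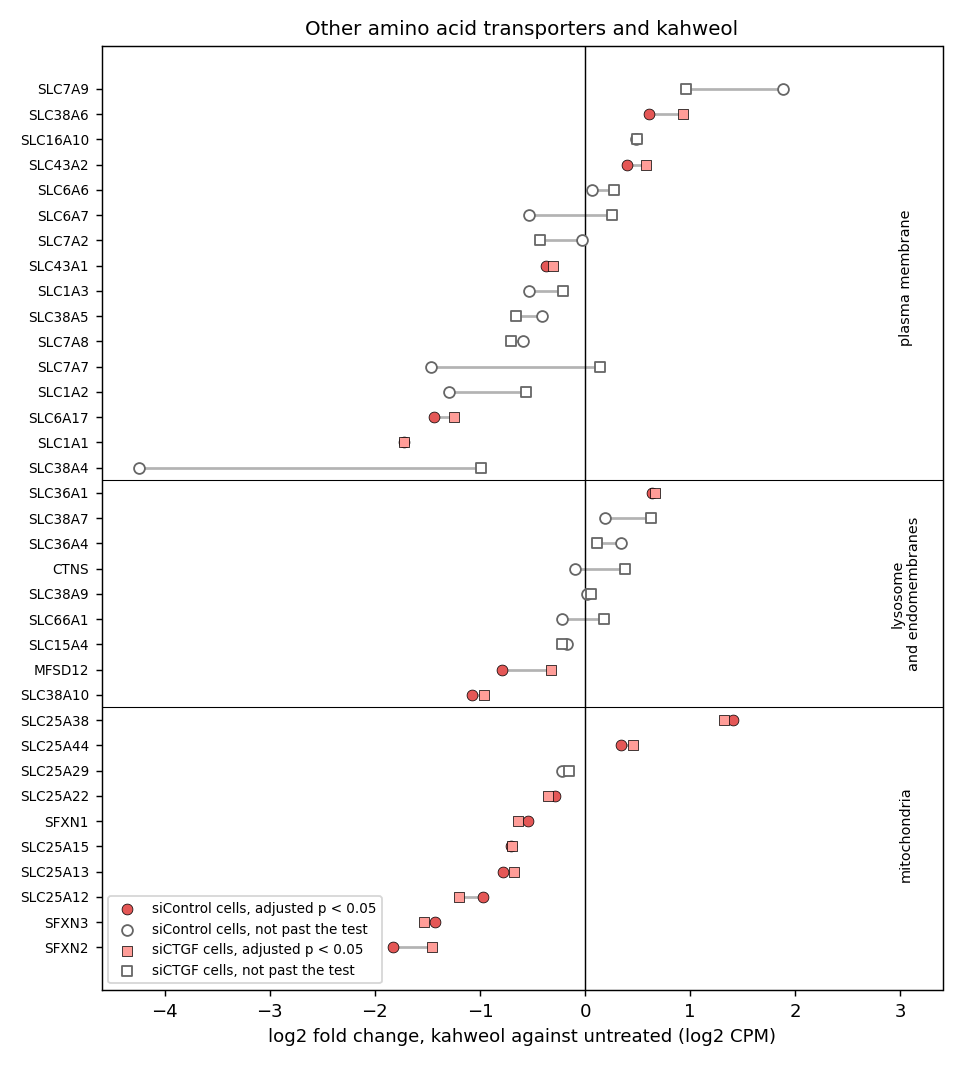
Kahweol log2 fold change of CPM for the 35 other amino acid transporters, in siControl cells (circles) and siCTGF cells (squares), grouped by location. Filled points passed the edgeR test over all 4 libraries. In the mitochondrial group 7 of 10 lie to the left of 0 and passed, beside 23.6% of all genes lower in that test.

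Genes that use, make or sense amino acids were read the same way. The shares to set beside each count are 22.9% higher and 23.6% lower over all genes. Of 11 genes of cystine use and glutathione kept, 5 rose and 1 fell. GCLM, the modifier subunit of glutamate cysteine ligase, went from 117 and 130 CPM to 384 and 415 CPM (1.69 ± 0.07, adjusted p = 2.01e-05), and its catalytic subunit GCLC from 57.3 and 56.1 CPM to 160 and 190 CPM (1.62 ± 0.10, adjusted p = 5.31e-05). CTH and TXNRD1 also rose, and GSS fell by 0.61 ± 0.08 (adjusted p = 0.000840). Of 21 genes of amino acid synthesis and glutamine use, 5 rose and 8 fell, with GLUL, glutamine synthetase, at 0.94 ± 0.07 (adjusted p = 9.20e-05), ASNS, asparagine synthetase, at 0.85 ± 0.09 (adjusted p = 0.000272) and ASL at -1.22 ± 0.11 (adjusted p = 0.000144).

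Of 13 transcription factors and regulators of the amino acid and oxidative responses, 11 rose and 0 fell, beside 22.9% and 23.6% of all genes. DDIT3 went from 18.4 and 25.9 CPM to 74.1 and 90.6 CPM (1.90 ± 0.10, adjusted p = 3.88e-05), ATF3 changed by 1.79 ± 0.12 (adjusted p = 6.20e-05) and NFE2L2 by 1.28 ± 0.10 (adjusted p = 0.000101). ATF4, named after its values were seen, was at 496 and 520 CPM without kahweol and 940 and 933 CPM with it (0.88 ± 0.06, adjusted p = 7.13e-05). TRIB3, also named after its values were seen and a known ATF4 target, did not pass (-0.04 ± 0.09, adjusted p = 0.731). Of 24 genes of amino acid sensing by mTORC1, 10 rose and 7 fell, beside the same shares of all genes. SESN2, a leucine sensor, was at 1.53 ± 0.10 (adjusted p = 6.34e-05) and CASTOR1, an arginine sensor, at -1.05 ± 0.25 (adjusted p = 0.0108). These p-values rest on 1 residual degree of freedom and count any interaction between both factors as noise. The lists were chosen with earlier results of these data known. Most named genes were picked for passing a fold threshold in the same libraries. The counts and p-values of the lists are therefore a description.

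**Figure D5:**
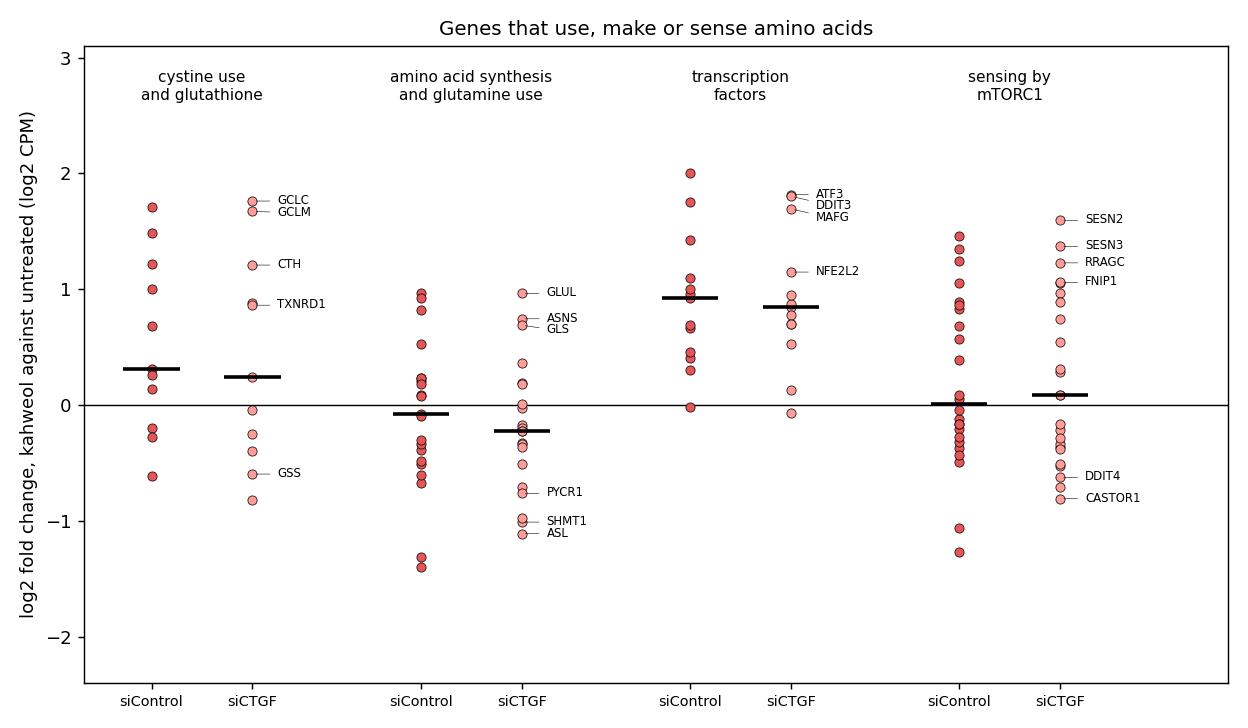
Kahweol log2 fold change of CPM for each gene of 4 lists in siControl and siCTGF cells, with the list median as a black bar and genes named by rule labelled. The transcription factor list has medians of 0.92 and 0.84, with TRIB3 just below 0 in both backgrounds (-0.02 and -0.07). The other lists also spread to both sides of 0.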

How the data were processed

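RNA-Seq was measured in 4 libraries of MDA-MB-231 cells, grouped by the sample labels into 4 conditions of 1 library. Per the submitters' processing notes, the authors used Trimmomatic 0.38, FastQC 0.11.7, HISAT2 2.1.0, Bowtie2 2.3.4.1 and StringTie 2.1.3b with GRCh37.p13, and the order, filters and strand setting are not given in the sources used here. The gene counts deposited by the authors are whole numbers without normalization. The FPKM and TPM deposited by the authors came from the StringTie run, and the deposited coverage signal served only to check the counts: 104 to 106 aligned bases fall on each count, so a count is near 1 read. Library totals of 44781516 to 59129784 counts set the precision.

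TMM scaling was done in edgeR 4.0.16 under R 4.3.3. Genes averaging under 10 counts were left out, and log2 CPM used a prior count of 2. Fold changes between single libraries carry 95% Clopper-Pearson counting intervals, with 2 reads as 1 fragment. The kahweol and siCTGF effects over all genes were tested with edgeR's quasi-likelihood test, additive in both factors with 1 residual degree of freedom, after a test on simulated data. DESeq2 1.42.0 and limma 3.58.1 (voom) were alternatives, with other scalings, units, thresholds and filters. In all 20 alternatives were planned, and the heavy to light chain ratio from FPKM, added after seeing the data, equals that from TPM by construction.

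The members and gene lists were chosen with earlier results of these data known. Named genes are the members, CCN2, the 5 protein-coding genes with the nearest profile to SLC3A2, and, for each list and direction, at most 4 genes averaging 50 counts or more that passed the same fold threshold (1.3 or 0.7) in both kahweol comparisons. VIM, ZEB1, CDH2, KRT8, EPCAM, CDH1, ESR1, PGR, ERBB2, KRT19 and CD68 were picked from the marker lists, outside this rule and with their values known. ATF4 and TRIB3 were picked from the transcription factor list in the same way. Promoters came from RefSeq (GRCh38.p14) and were joined by symbol, and no coordinate was converted between builds. Drawing used Python 3.11.15 with matplotlib 3.10.9.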

Additional observations from a re-analysis of the deposited data

Results flagged for a closer look

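Effects with opposite signs under the same contrast in both backgrounds, both counting intervals away from 0, were found for 3 members, and the differences were not tested because each condition has 1 library. The share of all genes that meet this rule is not given here, so nothing is read from the number. Counting intervals are narrow at high counts, so small opposite values can pass. The kahweol log2 fold change of SLC38A1 was 0.0443 in siControl cells and -0.19 in siCTGF cells, but the siControl value was negative under total-count (-0.09), TPM (-0.18) and FPKM (-0.06) scaling, where the signs no longer differ. The siCTGF log2 fold change of SLC7A11 was 0.39 in untreated cells and -0.0419 in kahweol-treated cells, that of SLC1A5 was 0.11 and -0.10, and that of SLC38A1 was 0.11 and -0.12. The signs of these siCTGF values did not change under the other scalings, units and prior count tried.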

How the results depend on the processing

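SLC3A2 and SLC7A11 stayed over 1.3 with kahweol in both siRNA backgrounds under every scaling, unit, prior count and threshold tried: the log2 fold changes ran from 2.74 to 2.93 and 2.79 to 2.98 for SLC3A2, and from 1.52 to 1.79 and 1.07 to 1.35 for SLC7A11. Members over 1.3 with kahweol in siControl cells numbered 2 with TPM (pseudocount 1 or 0.1), FPKM (pseudocount 1) and thresholds of 1.5 or 2, in place of 4. The share of all genes fell as well, from 28.1% to 14.0% (TPM + 1), 17.9% (TPM + 0.1) and 15.4% (FPKM + 1). At the thresholds of 1.5 and 2 it was 19.0% and 8.19%. In siCTGF cells 2 were over with TPM + 1, FPKM + 1 and the threshold of 2, in place of 3, and 1 member (SLC7A1) was under 0.7 with total-count scaling, TPM and FPKM. All genes over there went from 28.4% to 13.6%, 13.5% and 9.34%. Those under 0.7 went from 24.2% to 30.3% (total-count), 26.6% (TPM + 1), 34.6% (TPM + 0.1) and 19.2% (FPKM + 1). With total-count scaling, TPM, FPKM and the thresholds of 1.5 or 2, both siCTGF comparisons had 0 members over. These settings gave 1.94 to 9.10% of all genes over in untreated and 3.74 to 13.3% in kahweol-treated cells. In the main setting 1 member was over in each, SLC7A11 in untreated and SLC6A9 in kahweol-treated cells, beside 9.63% and 14.7% of all genes. SLC1A4, under 0.7 for siCTGF in kahweol-treated cells, was not called with TPM + 1, FPKM + 1 and the thresholds of 1.5 or 2. The cause was not tested. Of 240 member values under alternatives, 151 stayed inside the counting interval of the main value, and 26 small values, at most 0.21 in size, changed sign. The median of all genes shifted by -0.13 and -0.15 with total-count scaling and by -0.15 and -0.18 with TPM + 1 in the kahweol comparisons.

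With no filter on low counts, genes under 0.7 with kahweol numbered 6817 in siControl and 6061 in siCTGF cells, and 7732 were over 1.3 in siCTGF cells. For siCTGF in untreated cells 3859 were over and 3750 under, and in kahweol-treated cells 5339 and 3071. At a mean count of at least 100, 2827 were under 0.7 with kahweol in siControl cells, and the siCTGF comparisons gave 620 over and 419 under, and 1011 over and 398 under. Each filter changes the set of genes counted, and the cause of the changed numbers was not tested. The siCTGF effect over all genes gave 11 higher and 10 lower in edgeR, 34 and 50 with total-count scaling, 0 and 0 with no covariate (25 and 22 unadjusted); DESeq2 gave 69 and 62, limma-voom 32 and 28. Counting intervals do not cover variation between cultures, and SLC6A9 at 94 to 129 counts is limited by depth.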
